A study of Caenorhabditis elegans with 2 samples.

Results

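Binding of the nuclear hormone receptor NHR-23 was examined at 10 genes that encode the AAA ATPase CDC-48 and the cofactors that direct it to its substrates, out of 19973 protein-coding genes on the nuclear chromosomes of Caenorhabditis elegans. The members were chosen by function and by their symbols in the Ensembl gene models, with the rank of the cdc-48.1 peak in these same data in view. The signal at cdc-48.1 is therefore given as a description, and no test was run on it or on the list. All 10 symbols matched a single gene model each. The data are chromatin immunoprecipitation sequencing (ChIP-seq) peak lists from whole L3 larvae, males and females pooled, of strain OP43. That strain carries the allele unc-119(ed3) on chromosome III and the integrated transgene wgIs43, and the immunoprecipitated protein was eGFP-tagged NHR-23. There were 2 biological replicates in 1 group, so no comparison between conditions could be made. The strain's transgene is an insertion whose driving promoter and expression level the labels do not state, and a whole-larva sample does not show in which cells a site was bound.

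CDC-48, called p97 or VCP in mammals, is a hexameric ATPase that pulls ubiquitin-marked proteins out of membranes, chromatin and complexes so that they can be degraded or recycled. Cofactors decide which substrates it acts on: the UFD-1 and NPL-4 pair binds ubiquitin chains, and proteins with a UBX domain dock onto CDC-48 and add further specificity. In C. elegans the ATPase has a pair of closely related isoforms that cover for each other, and it is known for work in ER-associated degradation, in removal of the replicative helicase from chromatin and in germ cell development. NHR-23, the tagged protein, is the worm member of the ROR receptor family and is needed for molting.

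The promoter of cdc-48.1 held the strongest NHR-23 peak of any bound gene, at rank 3 of the pooled list and shared with C06A1.7. The near-twin gene cdc-48.2 had no thresholded peak at its own promoter. The authors' thresholded list holds 4944 peaks, and a gene is called bound here when the summit of any of them fell in its promoter window, which reaches 1500 bp upstream and 500 bp downstream from each annotated start. By this rule 6 of the 10 members were bound (cdc-48.1, ufd-1, ubxn-1, ubxn-2, ubxn-3 and ubxn-6), where 19.4% of all protein-coding genes were. Within 5 kb of the gene model, 8 of the 10 members had a thresholded summit, where 42.5% of protein-coding genes had one. No test was made of either difference, since results of these data were known when the genes were listed. The members npl-4.1 and ubxn-4 had none within that distance.

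A selection of sequences is shown first, to set the strong cdc-48.1 peak beside the weak cdc-48.2 site and the intergenic promoter peaks of 3 cofactor genes. The promoter peaks of ubxn-1 and ufd-1 are not shown. They were read from the RefSeq WBcel235 genome, the assembly of the ce11 lists, on the strand of the gene and 5′ to 3′. For cdc-48.1, ubxn-2, ubxn-3 and ubxn-6 the whole thresholded peak is given. For cdc-48.2 the 101 bases around its strongest promoter summit of the pooled list, which is sub-threshold, are given. Capitals mark matches on either strand to any of the motifs searched. These were the core of a nuclear receptor site (AGGTCA or the variant GGGTCA), the GAGA element (GAGAGA), the GATA factor sites (AGATAA or the variant TGATAA), a run of T (TTTTTTTT) and the E-box (CANNTG).
cdc-48.1 (chrII:10563434-10563716, minus strand): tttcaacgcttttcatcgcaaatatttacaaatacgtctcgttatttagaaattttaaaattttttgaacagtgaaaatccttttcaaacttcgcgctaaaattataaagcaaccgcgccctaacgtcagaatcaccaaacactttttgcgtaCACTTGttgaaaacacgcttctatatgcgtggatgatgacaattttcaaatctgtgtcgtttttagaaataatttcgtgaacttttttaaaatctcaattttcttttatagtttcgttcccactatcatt
cdc-48.2 (chrII:8138184-8138284, plus strand): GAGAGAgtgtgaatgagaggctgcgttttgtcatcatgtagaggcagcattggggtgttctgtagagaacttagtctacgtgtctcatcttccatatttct
ubxn-2 (chrIV:2725933-2726055, minus strand): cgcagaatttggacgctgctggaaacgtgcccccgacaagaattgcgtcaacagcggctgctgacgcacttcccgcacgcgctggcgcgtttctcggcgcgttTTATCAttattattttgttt
ubxn-3 (chrII:221342-221439, minus strand): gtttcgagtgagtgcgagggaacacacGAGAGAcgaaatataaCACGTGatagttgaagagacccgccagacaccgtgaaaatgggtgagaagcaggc
ubxn-6 (chrIV:4810485-4810628, minus strand): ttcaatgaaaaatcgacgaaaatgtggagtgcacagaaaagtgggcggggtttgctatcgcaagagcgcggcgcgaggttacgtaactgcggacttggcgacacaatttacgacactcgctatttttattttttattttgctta

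The 283 bases under the cdc-48.1 peak held a single match, a CANNTG centred 14.5 bp from the summit. The nuclear receptor core was in none of the 12 windows of 101 bases around the thresholded summits within 5 kb of a member, and 10.96% of all 4944 thresholded summit windows hold it. GAGAGA was in 3 of the 12 windows, against 26.5% of all thresholded windows. It lay 5.5 bp from the ubxn-3 promoter summit, beside a CANNTG at 21.5 bp. Outside the 12, it lay 47.5 bp from the weak cdc-48.2 summit and 40.5 bp from the strongest pooled promoter summit of ubxn-4, also sub-threshold. AGATAA or TGATAA was in 2 windows (16.5% of all), one of them that of ubxn-2 at 43.5 bp, CANNTG in 5 (39.6% of all) and TTTTTTTT in none (4.33% of all). The ubxn-6 peak held no match to any of the motifs. No matches of different motifs overlapped in the sequences shown, and the absence of a string says only that these letters are not in the window.

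The ATPase genes stood far apart. At cdc-48.1 (WBGene00007352, chromosome II, 10560036 to 10563407, minus strand) the summit lay 168 bp upstream of the only annotated start, in intergenic sequence. Its peak spanned 10563434 to 10563716 and had a signal, the value the authors' caller assigned to each peak, of 383 in replicate 1, 378 in replicate 2 and 759.6 in the pooled list. Both replicates placed it at the top, at rank 2 of 30000 peaks in replicate 1 and rank 3 of 27191 in replicate 2. Signal values are on the scale of their own list, in which the highest peak reached 493 in replicate 1, 537 in replicate 2 and 967.1 in the pooled list. The replicate summits lay 7 and 5 bp from the pooled one. The pooled peaks at ranks 1 and 2 lie in no promoter window of a protein-coding gene, so that of cdc-48.1, at rank 3, was the strongest peak assigned to a bound gene. The window of C06A1.7 also takes in this summit, 1316 bp upstream of its start.

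Downstream of cdc-48.1 lay 3 further thresholded summits, all intergenic and all far weaker. One lay 3572 bp from the start, just past the 3′ end, with a pooled signal of 39.1 (rank 4273), 22.8 in replicate 1 and 30.0 in replicate 2. The next lay 5972 bp from the start at 64.1 (rank 2270), with 23.1 in replicate 1 and 40.3 in replicate 2. The farthest, 7770 bp from the start at 47.5 (rank 3414), lay 593 bp upstream of mnk-1, with 18.9 in replicate 1 and 37.1 in replicate 2. The promoter peak was 11.8 times the strongest of these in the pooled list. In all, 548 protein-coding genes, cdc-48.1 included, had 4 or more thresholded summits within 5 kb, 2.74% of the total.

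The paralogue cdc-48.2 (WBGene00008053, chromosome II, 8138496 to 8141230, plus strand) encodes a protein of 810 residues, against 809 for CDC-48.1, and the pair is identical at 88.1% of aligned positions. The strongest summit in the cdc-48.2 promoter window had a signal of 23.1 in replicate 1 (rank 3465), 297 bp upstream. In replicate 2 the strongest was at another site, 819 bp upstream, with 17.2 (rank 5919). In the pooled list the strongest lay 262 bp upstream with a signal of 23.3 (rank 7346), below the lowest thresholded signal of 34.2. The replicate 2 peak that holds this pooled summit had only 7.43 (rank 12192), with its own summit 175 bp upstream. By rank the replicate 1 peak would fall among that list's 4944 strongest, and those of replicate 2 and the pooled list would not. The cdc-48.1 value was 16.6 times the strongest cdc-48.2 window value in replicate 1, 22.0 times in replicate 2 and 32.5 times in the pooled list. Each ratio was taken within 1 list, and that of replicate 2 used the site 819 bp upstream. Most pooled peaks lie below the threshold, since the pooled list holds 30000 peaks and the thresholded list 4944. The pooled list placed 13 summits within 5 kb of cdc-48.2, against 11 for cdc-48.1, and 12 of the 13 were below the threshold. The exception, at 84.3 (rank 1415, with 22.8 in replicate 1 and 59.0 in replicate 2), lay 5002 bp from the cdc-48.2 start, 20 bp upstream of ints-11 and 383 bp upstream of rpl-10.

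**Figure D1:**
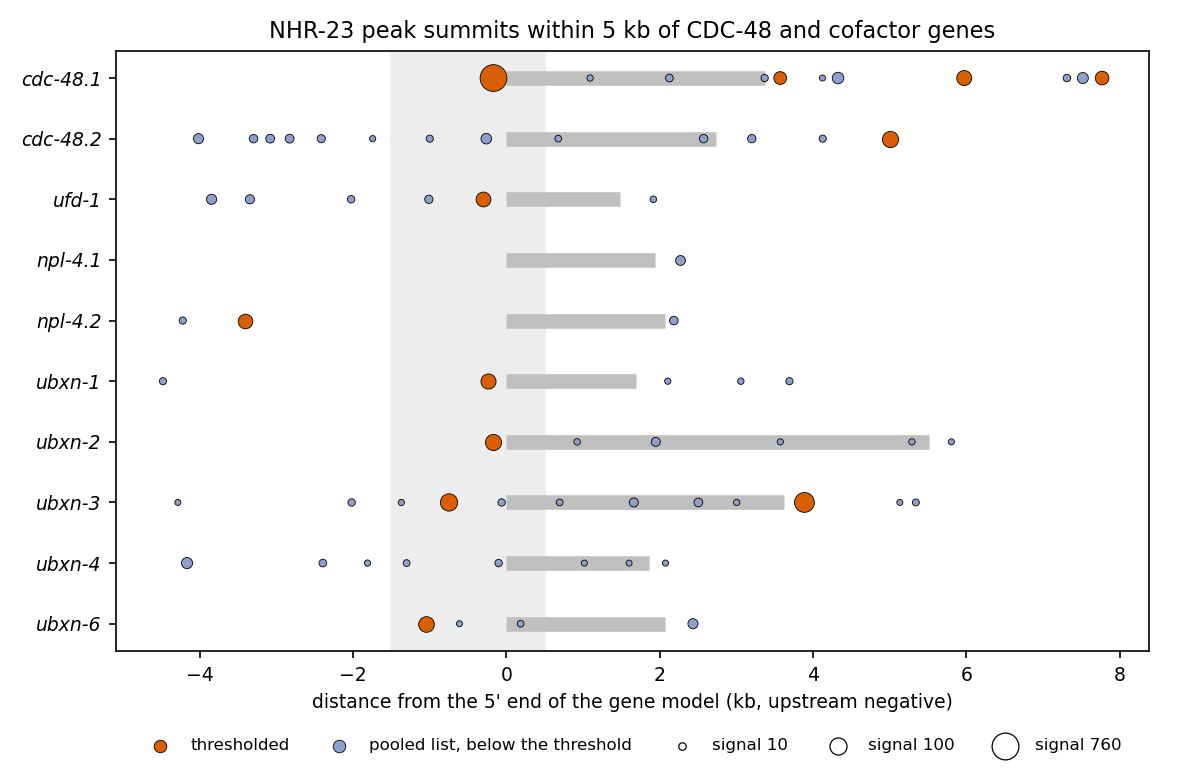
Position of every summit of the pooled list within 5 kb of each member, in kb from the 5′ end of the gene model (x axis, upstream negative), with 1 gene per row, gene models as grey bars and the window from 1500 bp upstream to 500 bp downstream of that end shaded. Orange circles are thresholded summits and blue circles weaker ones, and the size grows with the logarithm of the pooled signal. The circle at cdc-48.1 is the largest, the cdc-48.2, npl-4.1, npl-4.2 and ubxn-4 windows hold no orange circle, and extra starts inside ubxn-2 and ubxn-3 are not shaded.

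The cofactor genes that bind ubiquitin differed among themselves. UFD-1 and NPL-4 form the heterodimer that delivers ubiquitinated substrates to the ATPase. At ufd-1 (WBGene00006733, chromosome IV, 12329408 to 12330890, minus strand) a summit 299 bp upstream had a signal of 23.5 in replicate 1 (rank 3378), 38.5 in replicate 2 (rank 2190) and 61.4 in the pooled list (rank 2414). It lay in the 3′ UTR of F19B6.1, the gene 85 bp upstream on the same strand, and was the only thresholded summit near a member that was not intergenic. No other protein-coding start had it in its window.

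The NPL-4 genes had no summit of any strength in their promoter windows, in either replicate or in the pooled list. Both lie on chromosome II on the plus strand, npl-4.1 (WBGene00019120) at 5631351 to 5633284 and npl-4.2 (WBGene00019121) at 5622889 to 5624959. Within 5 kb of npl-4.1 the pooled list held 1 summit, with a signal of 19.6 (rank 8622), replicate 1 held 3 and replicate 2 held 0. Near npl-4.2 a thresholded summit with a pooled signal of 58.9 (rank 2548) lay 3415 bp upstream, which is 155 bp upstream of dhs-6. The replicate peaks that cover it were far apart in rank, at 6.39 in replicate 1 (rank 18254) and 52.6 in replicate 2 (rank 1245). A stronger replicate 1 peak beside it, at 16.3 (rank 5545), had its summit 3678 bp upstream of npl-4.2 and did not cover the pooled summit. The pair encodes proteins of 529 residues each, identical at 99.1% of positions, and the copies extend into the flanks. Of the strings of 50 bases in each NPL-4 promoter window 88.5% occur more than once in the genome, against 0% for cdc-48.2, ufd-1, ubxn-1, ubxn-3, ubxn-4 and ubxn-6, 10.7% for cdc-48.1 and 11.6% for ubxn-2. None of the repeated strings lay inside the 12 thresholded peaks near members. The labels do not say how reads from repeated sequence were placed, and its part in the missing summits was not tested.

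**Figure D2:**
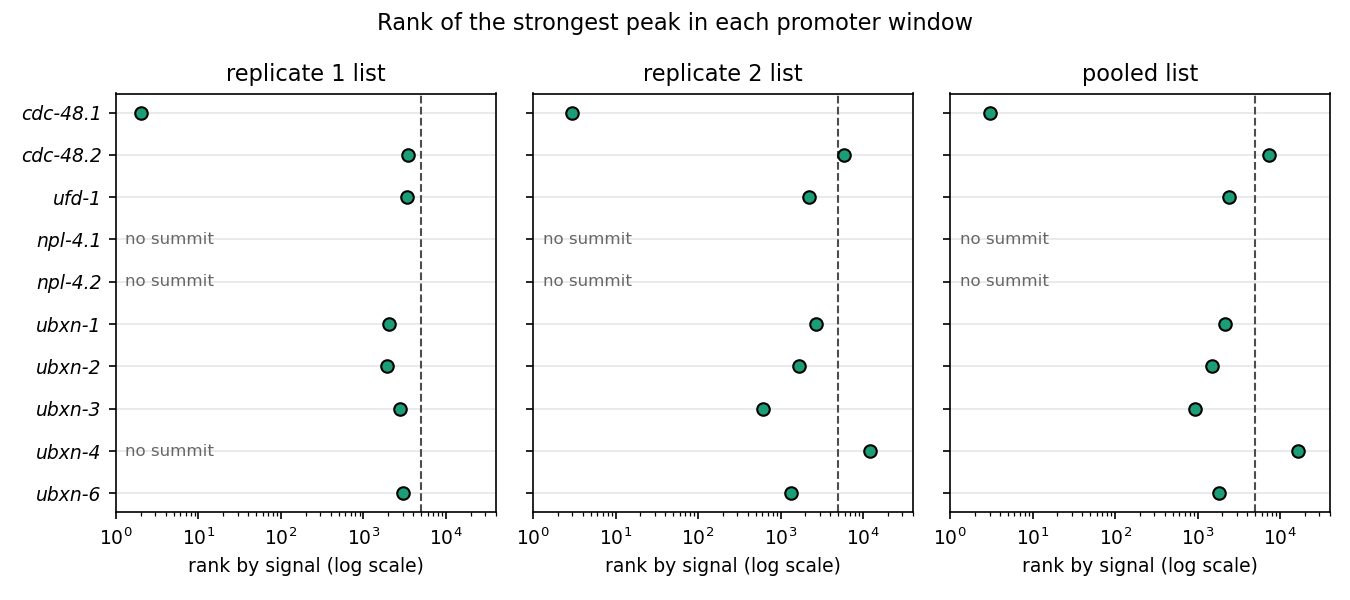
Rank by signal (x axis, log scale, strongest at the left) of the strongest summit in each member's promoter window, in the lists of replicate 1, replicate 2 and the pooled alignments. The dashed line marks rank 4944, the size of the thresholded list. The cdc-48.1 peak stands at ranks 2, 3 and 3, and no NPL-4 gene has a summit in any list.

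Of the 5 listed genes of UBX-domain cofactors 4 were bound, where 19.4% of all protein-coding genes were. A further UBX gene, ubxn-5, which is in a pathway list and not among the members, was not bound and had no pooled promoter summit. In the worm UBXN-1, UBXN-2 and UBXN-3 act together with CDC-48 in the sperm-to-oocyte decision of the germ line. At ubxn-1 (WBGene00017733, chromosome I, 2434002 to 2435691, plus strand) the summit lay 239 bp upstream, with signals of 32.9 in replicate 1 (rank 2015), 33.1 in replicate 2 (rank 2726) and 65.9 in the pooled list (rank 2168). It sits between divergent genes and was nearer, at 148 bp, to the start of tipn-1, whose product protects stalled replication forks. The summit was also in the window of F23C8.8, 1175 bp from its start.

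At ubxn-2 (WBGene00022381, chromosome IV, 2720313 to 2725819, minus strand), which encodes the worm counterpart of mammalian p47, the summit lay 174 bp upstream of the most upstream start. Its signal was 33.6 in replicate 1 (rank 1949), 44.8 in replicate 2 (rank 1697) and 82.2 in the pooled list (rank 1495). The replicate summits lay 1 and 0 bp from the pooled one, and no other protein-coding gene shared it. The 5 weaker pooled summits near ubxn-2 had signals from 5.39 to 15.7.

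At ubxn-3 (WBGene00018586, chromosome II, 217049 to 220667, minus strand) thresholded peaks flanked the gene. UBXN-3, related to mammalian FAF1, helps CDC-48 take the replicative helicase off chromatin. The promoter summit, 748 bp upstream, had 26.7 in replicate 1 (rank 2800), 74.2 in replicate 2 (rank 609) and 105 in the pooled list (rank 929). The stronger one, past the 3′ end, had 79.1 in replicate 1 (rank 314), 100.4 in replicate 2 (rank 264) and 179.5 in the pooled list (rank 274), and lay 158 bp upstream of the next gene, F48A11.4. With 12 pooled summits within 5 kb and 7 in its promoter windows, which start from 4 positions, ubxn-3 had the most window summits of the members. All of these 7 but the thresholded one had signals of 16.0 or less.

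At ubxn-6 (WBGene00019163, chromosome IV, 4807426 to 4809497, minus strand), the counterpart of mammalian UBXD1, the summit was the most distant among bound members, 1047 bp upstream. Its signal was 25.4 in replicate 1 (rank 2992), 50.7 in replicate 2 (rank 1337) and 73.5 in the pooled list (rank 1818). It was closer to eif-1.A, a translation initiation factor gene on the other strand (390 bp), and to H06H21.37, which overlaps the 5′ end of ubxn-6 (570 bp).

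The remaining gene, ubxn-4 (WBGene00022703, chromosome III, 8403709 to 8405562, minus strand), whose human counterpart is anchored in the ER membrane, was not bound. Its strongest promoter summit lay 101 bp upstream with a pooled signal of 10.03 (rank 16477). Replicate 2 had 7.34 there (rank 12299), 72 bp upstream, and replicate 1 had no summit in the window. The nearest thresholded summit lay 6641 bp from the gene model. Of the members with any pooled promoter summit, ubxn-4 had the weakest and cdc-48.2 the next weakest.

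Ordered by pooled signal, the bound members ran from cdc-48.1 (759.6) through ubxn-3 (105), ubxn-2 (82.2), ubxn-6 (73.5) and ubxn-1 (65.9) to ufd-1 (61.4). Below cdc-48.1 the neighbours in this order traded places between the replicates: replicate 1 had ubxn-2 and ubxn-1 above ubxn-3, and replicate 2 had ubxn-3 and ubxn-6 above ubxn-2. The order below cdc-48.1 was therefore not the same in both lists, whereas cdc-48.1 was 11.4 times the next member in replicate 1, 5.09 times in replicate 2 and 7.24 times in the pooled list. The median pooled signal of the 6 bound members was 77.8, against 68.7 over all 3883 bound genes, and 73.5 without cdc-48.1. Weaker summits of the pooled list brought the count with any promoter summit to 8 of 10 members, where 42.2% of all protein-coding genes had one.

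**Figure D3:**
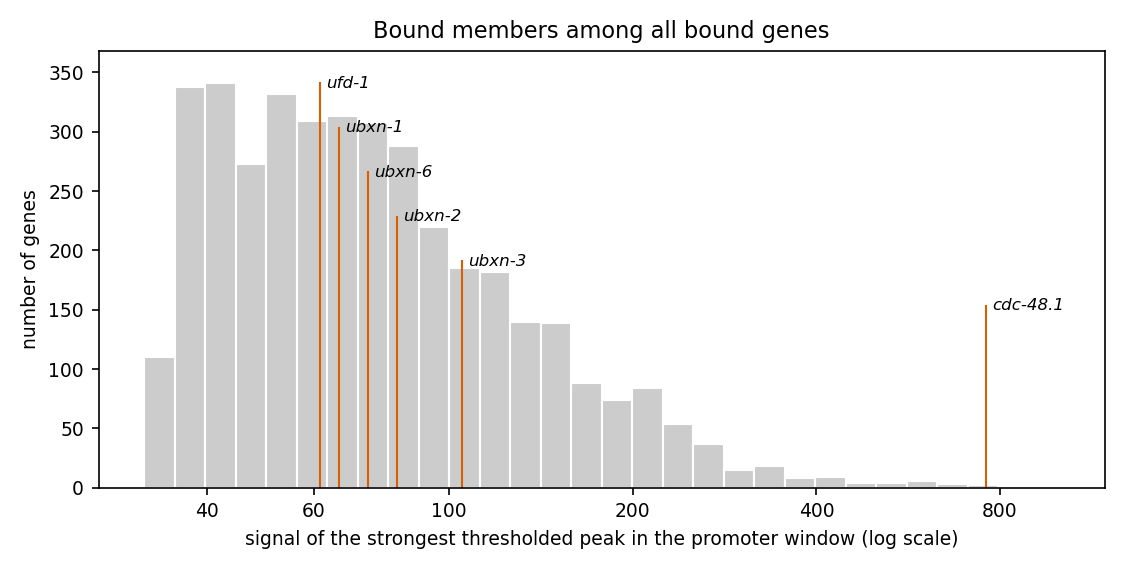
Number of bound protein-coding genes (y axis) by the pooled signal of their strongest thresholded promoter peak (x axis, log scale), grey bars for all 3883 bound genes and orange lines for the 6 bound members, whose heights only space the labels. The lines of the 5 cofactor genes lie between 61.4 and 105, within the bulk of the bars, and cdc-48.1 at 759.6 lies at the far right.

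Replicate agreement was described for the 12 thresholded summits within 5 kb of a member. The thresholded list was itself derived from the pooled and both replicate lists, so some agreement was built into the choice of these summits. In each of the full replicate lists a peak covered all 12, as both lists did for 4773 of all 4944 thresholded summits. Inside one of the 4944 strongest peaks of both replicates lay 11 of the 12, where 67.4% of all thresholded summits did. The exception was the summit near npl-4.2. Replicate 2 ranked the summits in the windows of ufd-1, ubxn-2, ubxn-3 and ubxn-6 higher than replicate 1 did, and replicate 1 ranked those of cdc-48.1 and ubxn-1 higher. Of the 12 summits, 6 lay in a promoter window of a member. Of the other 6, the nearest start of 5 belonged to another gene.

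**Figure D4:**
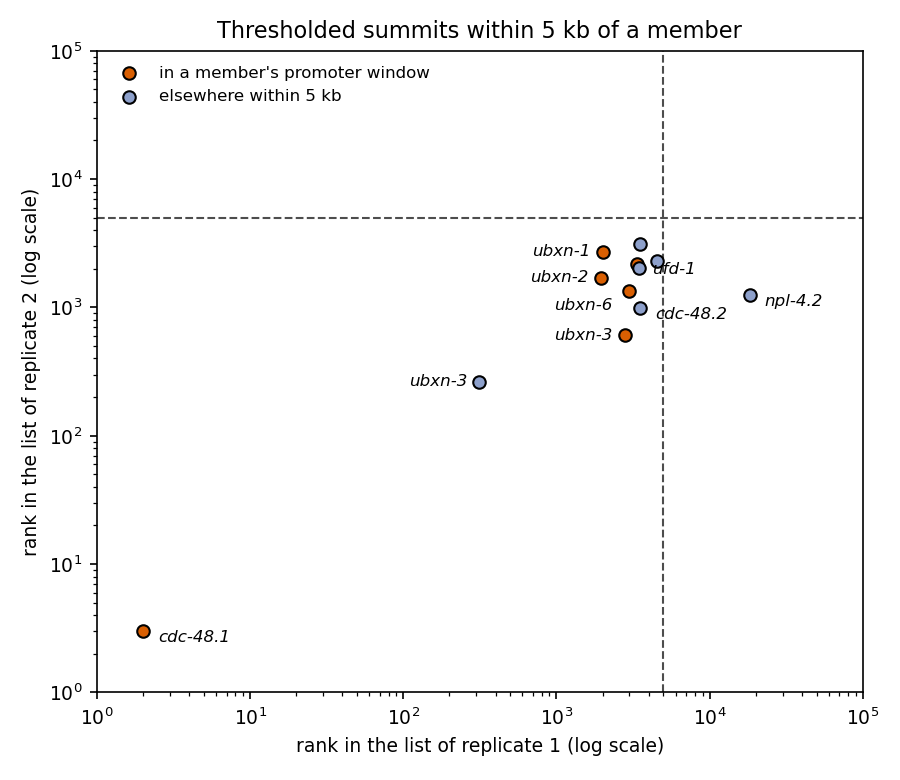
Rank in the list of replicate 1 (x axis) against rank in the list of replicate 2 (y axis), both on log scales, for the 12 thresholded summits within 5 kb of a member, orange in a member's promoter window and blue elsewhere. Dashed lines mark rank 4944. The cdc-48.1 promoter summit stands at ranks 2 and 3, the summit past the 3′ end of ubxn-3 at 314 and 264, and only the summit near npl-4.2 crosses a line. The unlabelled blue points are the 3 summits downstream of cdc-48.1.

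The genes whose strongest promoter peaks were most like that of cdc-48.1 were found by the Euclidean distance of log2 signals over 3 lists, pooled, replicate 1 and replicate 2. C06A1.7 shares the cdc-48.1 summit and so had distance 0. The ribosomal protein gene rpl-3 followed at 0.30, with 338 in replicate 1, 335 in replicate 2 and 676 in the pooled list. Next were rpl-15 and K11H12.8 at 0.46, which share 1 peak of 307 in replicate 1, 328 in replicate 2 and 633 in the pooled list.

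Further genes were taken from 5 lists of 62 genes, called pathway lists here, all matched to a gene model. The lists include other AAA ATPases and the ER unfolded protein response, so they do not make up a single pathway. In all, 40 of the 62 were bound (64.5%), and no test was made of the difference from the share over all protein-coding genes given above. All 6 genes of the ER unfolded protein response, the signalling that raises chaperone supply when proteins misfold, were bound. Pooled signals were 207 at atf-6 and 136 at xbp-1, transcription factor genes of the response, 194 at hsp-3 and 73.9 at hsp-4, genes of the ER chaperone BiP, and 73.6 at pek-1 and 68.4 at ire-1, which encode stress-sensing kinases. The replicates gave atf-6 113 and 93.5, and hsp-3 89.3 and 119 (replicate 1 and replicate 2).

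Of 16 partners in ubiquitin handling and ER-associated degradation, 7 were bound and 9 were not. The strongest were ubql-1, a ubiquilin that shuttles ubiquitinated proteins, at a pooled signal of 224 (rank 142), and ubc-7, an ubiquitin-conjugating enzyme of the ER, at 152 (rank 398). They were followed by ufd-3 (133, rank 551), ubc-6 (100.7, rank 1003), the derlin cup-2 (98.8, rank 1052) and the shuttle rad-23 (97.2, rank 1087). In each replicate ubql-1 exceeded the other 6, with 109 in replicate 1 and 116 in replicate 2. The 9 that were not bound include the ubiquitin ligase genes sel-11, hrdl-1 and marc-6 and ufd-2, whose product extends ubiquitin chains. Weaker pooled promoter summits were present at marc-6 (29.9, rank 5708), sel-11 (22.6, rank 7559) and ufd-2 (8.21, rank 19933), and hrdl-1 had none.

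All 4 genes that supply ubiquitin or start its transfer were bound: ubl-1 (161, rank 349), ubq-2 (100.9, rank 1000), ubq-1 (73.8, rank 1806) and the activating enzyme gene uba-1 (72.4, rank 1869). The products of ubl-1 and ubq-2 are fusions with ribosomal proteins, so these genes also belong to the ribosomal protein set.

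Of 18 genes of the replicative helicase and its removal, the process in which UBXN-3 acts, 11 were bound and 7 were not. Of all protein-coding genes 19.4% were bound. The strongest of the 11 was tim-1, a partner of TIPN-1 at replication forks, at 246 (rank 104, with 108 in replicate 1 and 138 in replicate 2). Next were the helicase subunit genes mcm-4 (114, rank 784) and psf-1 (114, rank 790), then elb-1 (64.8, rank 2229), ulp-4 (59.5, rank 2510) and mcm-7 (54.4, rank 2870). The ulp-4 summit lay 1466 bp upstream, near the edge of the window. Not bound were mcm-6, evl-18, sld-5, psf-2, cul-2, lrr-1 and elc-1. Among these, weaker pooled promoter summits lay at lrr-1 (28.1), cul-2 (22.9) and elc-1 (5.05), and mcm-6 had none. Of 18 other AAA ATPase genes 12 were bound, led by the proteasomal rpt-2 (162, rank 344), the microtubule-severing spas-1 (133, rank 554), the peroxisomal prx-1 (127, rank 616), rpt-1 (117, rank 747), the mitochondrial atad-3 (109.6, rank 857) and the endosomal vps-4 (102, rank 984). None of these could reach the 759.6 of cdc-48.1, since that peak is the strongest of any bound gene. The bound gene figl-1 shares its summit with mcm-7, so 1 peak counts in both lists.

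**Figure D5:**
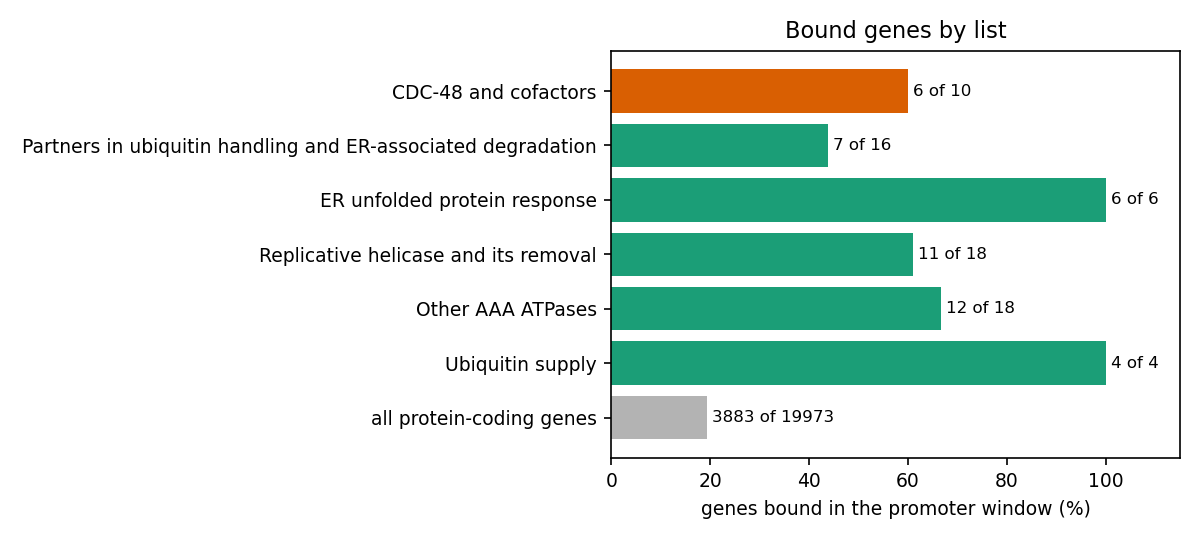
Percent of genes bound in the promoter window (x axis) for the CDC-48 members, the 5 pathway lists and all protein-coding genes, with the counts beside the bars. The members stand at 6 of 10 and the lists between 7 of 16 and 6 of 6, and all protein-coding genes at 3883 of 19973.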

How the data were processed

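Whole-larva ChIP-seq of eGFP-tagged NHR-23 was available as ce11 peak lists of 2 biological replicates. The authors called peaks on the alignments of each replicate and of both together, per the file descriptions deposited with the lists, and derived the thresholded list by an irreproducible discovery rate procedure. A possible control is named in the labels, and how it entered the peak calling is not spelled out. Caller, threshold and software versions: not given in the sources used here. Each deposited peak carries a signal value, used only within its list. The lists give no read counts, so the depth is unknown.

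Summits (start plus offset) are 1-based and were assigned to Ensembl release 115 gene models (WBcel235, the ce11 assembly). C. elegans transcripts are often trans-spliced, so true starts can lie upstream of annotated ones. The assignment was tested on simulated summits. A replicate value is that of the strongest replicate peak holding the pooled summit. At cdc-48.2 and ubxn-4 promoters it is, unless stated otherwise, the strongest replicate summit in the window. Motifs were searched within 50 bp of summits on both strands. The count of repeated strings of 50 bases, and that length, were chosen after seeing the data. Proteins were translated from RefSeq gene models and aligned globally (BLOSUM62). Python 3.11.15, numpy 2.4.6, pandas 2.3.3 and Biopython 1.88 were used. The ce10 lists were not used.

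Members, pathway lists and tests were chosen with earlier results of these data known. Named were all members, genes sharing a thresholded promoter summit with one, up to 6 bound genes per pathway list by rank, and the 3 genes most like cdc-48.1 in signal, ties included. Other genes named were chosen after their values were seen.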

Additional observations from a re-analysis of the deposited data

How the results depend on the processing

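The 6 bound members were the same genes with the 4944 strongest peaks of replicate 2 alone, with the stronger 2472 thresholded peaks, with peaks among the strongest of both replicates, with a window from 3000 bp upstream and with the 5′ end of the gene model as the only start. With replicate 1's strongest peaks alone cdc-48.2 joined them, making 7. A window of 500 bp upstream left 4, without ubxn-3 and ubxn-6, and assignment to the nearest start left 4, without ubxn-1 and ubxn-6. Over the same alternatives the bound share of all protein-coding genes ran from 11.4% to 24.8%, and the bound pathway genes from 29 to 43 of 62. Members with a thresholded summit near the gene numbered 6 with a flank of 2 kb (29.0% of all protein-coding genes) and 9 with 10 kb (57.4%), against 8 with 5 kb (42.5%). The rank of the cdc-48.1 peak was 2 and 3 in the replicates taken alone. No count of members, of summits near them or of pathway genes moved by more than 1.5 times. The shares of all protein-coding genes did: with the stronger 2472 peaks 11.4% were bound, against 19.4%, and 27.0% had a summit within 5 kb, against 42.5%. Depth per replicate is unknown, so a missing weak summit in 1 list does not show absence of binding. No paired analysis was possible because there is only 1 group.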
